A study of Mus musculus with 8 samples.

Results

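The 10 genes described here encode heat shock chaperones and co-chaperones: Hspa1a, Hspa1b, Hspa8, Hsph1, Dnajb1, Bag3, Hsp90aa1, Hspb1, Hspd1 and Hspe1. They were chosen by symbol, with their spread between the mice of these same arrays and the Fos levels of these mice in view, so that spread and its order beside Fos are given as descriptions without a test. Probes were assigned by the accession printed for each spot, and 9 of the 10 genes had at least 1 such probe, out of 16959 genes with a compared probe. Hspa1b had no matching probe. The 9 genes were read by 14 probes, all of which stood well above background on all 8 arrays and passed the filter on dim probes.

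Islet RNA from male C57BL/6 mice fed the standard diet was hybridised to 1-colour Agilent arrays. The 4 control mice (β-CB1R+/+, labelled CB1 WT) were littermates with both Cnr1 alleles floxed and no Cre. The 3 knockout mice (β-CB1R-/-, labelled CB1 KO) carried the same floxed alleles and a tamoxifen-inducible Cre under the mouse insulin promoter (MIP-Cre/ERT). Mice of both genotypes received tamoxifen, which activates the Cre, and the knockout mice alone carried the transgene, so that the transgene and loss of the receptor in beta cells cannot be told apart. The sample labels give CB1 genotype alone and their protocol text speaks of the global knockout. β-CB1R-/- mouse 2 had 2 repeat arrays, which were averaged. The control arrays took one column of the slide and the knockout arrays the other, and the effects of column and genotype cannot be told apart. Islets were released with collagenase and picked by hand by a protocol the labels share over all samples. The labels record nothing of how long the preparation of any one mouse took, nor an age for the array mice, and the handling of an islet preparation is not a labelled variable. Between 33304 and 39988 probes per array were well above background. On a log2 scale relative to the array's 75th percentile, the endocrine hormones Ins2 and Gcg stood at 9.71 to 10.5 and at 9.43 to 10.12 over the mice, Cpa1, an acinar enzyme, at 10.19 to 11.07 and Ptprc of leukocytes at -2.58 to -1.83. Different probes share no scale, so that these ranges give no proportions of cells.

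Heat shock proteins hold unfolded chains in solution and return them to a folding path. When unfolded protein accumulates, the transcription factor HSF1 trimerises and binds heat shock elements, repeats of the unit NGAAN in alternating orientation, upstream of the inducible members. HSP70 proteins (HSPA8, which cells make at all times, and HSPA1A and HSPA1B, which stress induces) work in cycles with J proteins such as DNAJB1, with the exchange factors HSPH1 and BAG3, and hand clients to HSP90. HSPB1 is a small chaperone that needs no ATP, and HSPD1 with its lid HSPE1 folds proteins in the mitochondrial matrix. Fos is an immediate-early gene, one of the transcripts that rise within minutes of a stimulus without new protein synthesis.

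Promoter windows of RefSeq (GRCm38.p6, 250 bases before to 50 after the start of transcription) were found for 8 of the 10 genes, all but Hspa8 and Hsp90aa1. The arrays' header names another build, so these positions were not joined to any coordinate of the arrays. Pairs of units in opposite orientation, read as TTCNNGAA or GAANNTTC (each is its own reverse complement, so both strands are covered), stood in a window of 7 of the 8 genes. The same motif stood in 15.1% of all 32851 windows, and a run of 3 alternating units, which was in 3 of the 8 genes, in 0.603%. The stretches below, 5′ to 3′ on the strand of each gene, are shown because they hold the matches in Hspa1a and Hspb1, the genes with the widest ranges between mice, and in Hsph1 and Hspe1, which had narrower ones. Capitals mark bases that belong to a match.
Hspa1a, chr17:34972223-34972290, minus strand: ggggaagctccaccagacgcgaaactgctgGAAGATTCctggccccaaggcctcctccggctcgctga
Hspb1, chr5:135887772-135887859, plus strand: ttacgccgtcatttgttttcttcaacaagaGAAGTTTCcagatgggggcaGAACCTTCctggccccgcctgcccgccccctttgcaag
Hsph1, chr5:149636337-149636399, minus strand: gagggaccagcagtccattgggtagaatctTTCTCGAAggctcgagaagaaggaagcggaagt
Hspe1, chr1:55088053-55088082, plus strand: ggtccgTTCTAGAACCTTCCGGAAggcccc
The Hspa1a match began 104 bases before the start, and the Hspb1 matches 117 and 97 bases before it. Hspa1b carried the same match at 104 bases, and its 250 bases before the start were identical to those of Hspa1a at 247 positions. The Hspe1 stretch holds 3 overlapping matches, 89, 84 and 79 bases before the start, and lies head to head with Hspd1, where the same bases are 150 to 121 bases before an annotated start on the minus strand. In Hsph1 the match in capitals began 33 bases before the upstream start and 2 more lay after it. The match of Bag3 lay after its start, and Dnajb1 held none in its windows.

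Hspa1a, the stress-inducible HSP70, had the widest range. On the log2 scale relative to the 75th percentile of the array, it stood at -2.33, -2.46, 3.52 and 2.18 in β-CB1R+/+ mice 1 to 4. In β-CB1R-/- mice 1 to 3 it stood at -1.61, 1.89 and -2.76. Both genotypes therefore held mice at a high and at a low level: β-CB1R+/+ mice 3 and 4 and β-CB1R-/- mouse 2 were high, the other 4 mice were low, and no mouse lay in the gap of 3.49 between them. From the lowest to the highest mouse the difference was 6.28, or 77.6-fold, and the 2 repeat arrays of β-CB1R-/- mouse 2 gave 1.88 and 1.89. The SD between mice within genotype was 2.8, at percentile 99.98 of all compared probes. Because Hspa1a and Hspa1b are near-identical copies and the probe's sequence was not used here, the intensity cannot be assigned to one copy alone.

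Fos, read by 9 spots of 1 probe, stood at -0.82, -1.59, 6.31 and 5.34 in β-CB1R+/+ mice 1 to 4 and at 0.75, 5.84 and -0.71 in β-CB1R-/- mice 1 to 3. Its range was 7.91, or 240-fold, and the same 3 mice were high, separated from the others by 4.59. Since the chaperones were chosen with Fos in view, their relation to it is described and not tested, and no correlation is given because Fos falls into separate clusters of 3 and 4 mice.

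Hspb1, the small heat shock protein, stood at 3.76, 2.50, 5.02 and 5.06 in the β-CB1R+/+ mice and at 3.96, 4.81 and 2.93 in the β-CB1R-/- mice. Its 3 highest mice were again the 3 highest in Fos, with a gap of 0.84 to the next, over a range of 2.55 (5.88-fold). The SD within genotype, 1.1, was at percentile 96.87. Among the 9 measured genes, Hspa1a and Hspb1 were the ones whose 3 highest mice were those 3, as held for 1.33% of all genes.

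Dnajb1, the J protein that drives HSP70 in the stress response, stood at 3.55, 4.29, 5.47 and 4.24 in the β-CB1R+/+ mice and at 2.97, 4.43 and 3.42 in the β-CB1R-/- mice. It was highest in β-CB1R+/+ mouse 3 and next in β-CB1R-/- mouse 2, which are the 2 highest in Fos, but β-CB1R+/+ mouse 2, the lowest in Fos, came next and above β-CB1R+/+ mouse 4. Hsph1, the HSP110 exchange factor, was read by 2 probes. A_55_P2003513 gave 2.75, 2.17, 3.62 and 2.41 in the β-CB1R+/+ mice and 1.29, 2.79 and 1.94 in the β-CB1R-/- mice. The brighter A_55_P2176963 gave 2.72, 3.36, 4.04 and 3.13, then 2.63, 3.45 and 3.24. Both Hsph1 probes had the same highest pair as Dnajb1 and the same lowest mouse, β-CB1R-/- mouse 1, and disagreed on the mice between.

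Bag3, another exchange factor of HSP70, had the narrowest range: 1.32, 1.52, 1.49 and 1.17 in the β-CB1R+/+ mice and 1.13, 1.17 and 1.31 in the β-CB1R-/- mice, a range of 0.40 (1.32-fold) and an SD at percentile 5.33. β-CB1R+/+ mouse 3, highest in Hspa1a, was next to highest in Bag3, and β-CB1R+/+ mouse 2, among the lowest in Hspa1a, was highest.

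**Figure D1:**
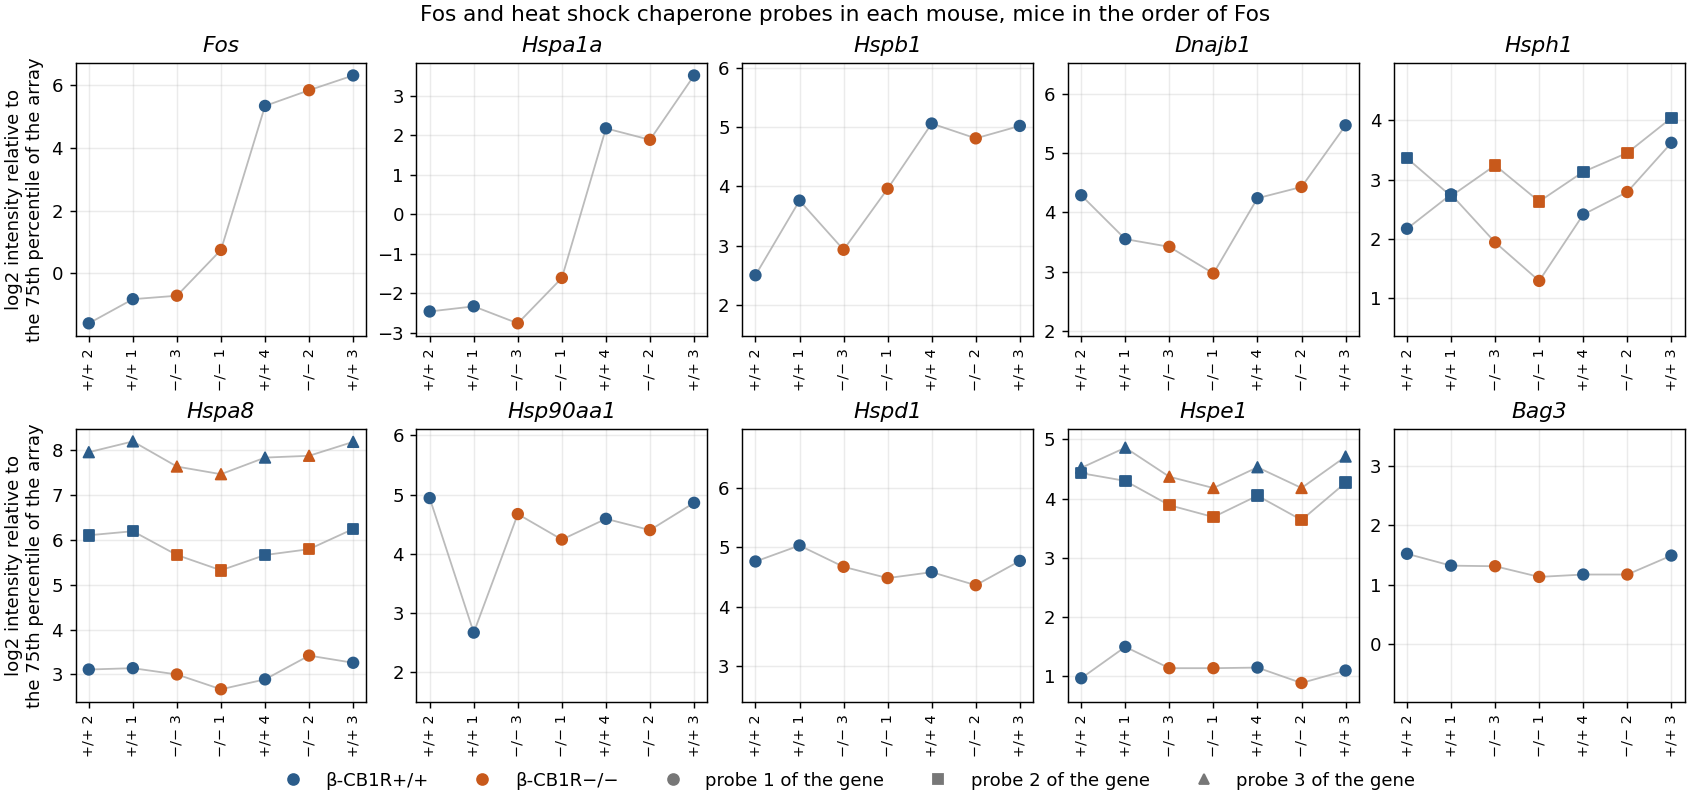
Log2 intensity relative to the array's 75th percentile (y axis) of Fos and of every probe of the 9 measured heat shock genes in each of the 7 mice (x axis, in the order of Fos). Blue points are β-CB1R+/+ mice, orange points β-CB1R-/- mice, shapes stand for different probes of a gene, and grey lines join the mice of 1 probe; Hspa1a steps up with Fos between β-CB1R-/- mouse 1 and β-CB1R+/+ mouse 4, Hspb1 does so by less, and Bag3 and Hspd1 stay within 0.40 and 0.67.

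Hspa8, the HSP70 of unstressed cells, was read by 3 probes with ranges of 0.75, 0.92 and 0.73. Its brightest, A_55_P2080603, gave 8.19, 7.95, 8.18 and 7.83 in the β-CB1R+/+ mice and 7.46, 7.87 and 7.63 in the β-CB1R-/- mice. That range of 0.73 (1.66-fold) sat beside 6.28 for its inducible relative Hspa1a in the same RNA. All 3 Hspa8 probes were lowest in β-CB1R-/- mouse 1.

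Hsp90aa1, the inducible cytosolic HSP90, stood at 2.67, 4.94, 4.86 and 4.59 in the β-CB1R+/+ mice and at 4.24, 4.40 and 4.67 in the β-CB1R-/- mice. β-CB1R+/+ mouse 1 stood alone below a band that held all the other mice. On the array of that mouse the median intensity of the negative control spots was 7.82, against 4.48 to 4.78 on the other β-CB1R+/+ arrays, and its part in the low value was not tested.

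The mitochondrial pair moved little between mice. Hspd1 stood at 5.03, 4.76, 4.77 and 4.58 in the β-CB1R+/+ mice and at 4.48, 4.36 and 4.67 in the β-CB1R-/- mice. Hspe1 was read by 3 probes. A_66_P124952 gave 4.86, 4.52, 4.71 and 4.53 in the β-CB1R+/+ mice and 4.18, 4.18 and 4.37 in the β-CB1R-/- mice. A_55_P2089358 gave 4.30, 4.43, 4.27 and 4.05, then 3.69, 3.64 and 3.89. With both of these probes every β-CB1R-/- mouse lay below every β-CB1R+/+ mouse. The dimmer A_55_P1953063 gave 1.5, 0.97, 1.1 and 1.15, then 1.14, 0.89 and 1.14, and its genotypes overlapped. The stretch with 3 overlapping exact matches, upstream of Hspe1 and Hspd1, belonged to genes with ranges of 0.61 to 0.78. Hspa1a, with 1 exact match, had the range of 6.28. Dnajb1, with no match, had a range of 2.49, and Hsph1, with 3 matches, ranges of 2.33 and 1.42. The search allowed no mismatch, so that units departing from its letters were not counted. A relation between matches and range was not tested.

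The spread differed between members of the family. The median SD within genotype was 0.26 over the 14 probes and 0.391 over all compared probes. Of the 14, 3 (Hspa1a, Hspb1 and Hsp90aa1) were among the 10% with the largest SD, and 8, of Hspa8, Hspd1, Hspe1 and Bag3, among the 30% with the smallest. The first count was 6 with a normexp background correction and 5 when probes had to be well above background on all arrays. Of the 14 probes, 5, both Hsph1 probes among them, were highest in β-CB1R+/+ mouse 3, the mouse with the most Fos. So were 5.41% of all compared probes. The count was 8 when β-CB1R+/+ mouse 1 was left out, and the share over all probes was not computed for that setting. In β-CB1R-/- mouse 1, 8 of the 14 were lowest, as were 12.2% of all compared probes and 6 of the 14 housekeeping genes. The repeat arrays of β-CB1R-/- mouse 2 differed by 0.005 to 0.12 in the 14 probes, against an SD of that difference of 0.46 over all compared probes. The 14 were well above background on all 8 arrays and the compared probes include dimmer ones, so that the 2 values are not alike in brightness.

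**Figure D2:**
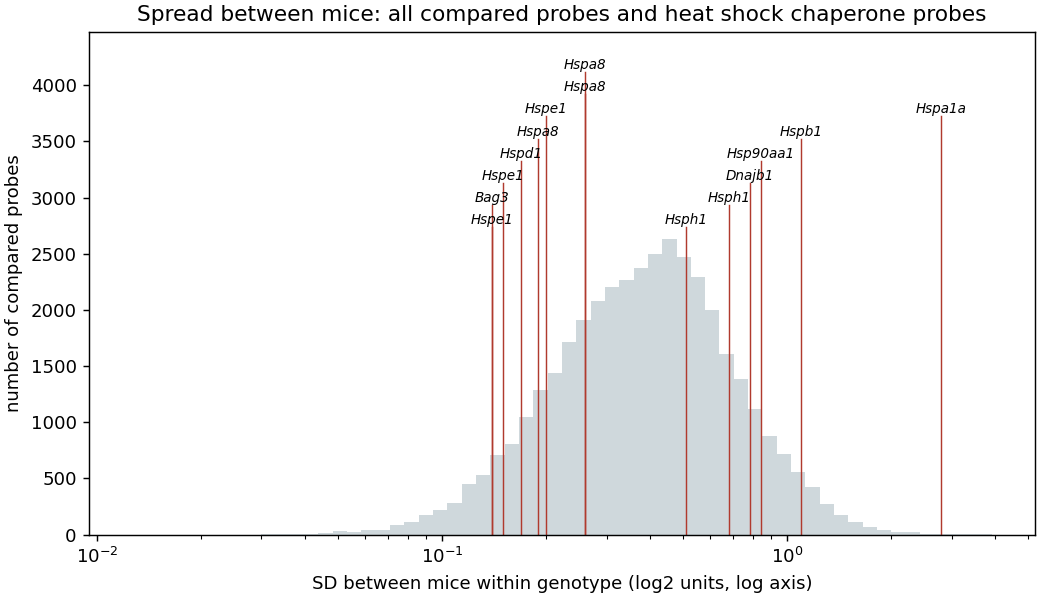
Histogram of the SD between mice within genotype (x axis, log2 units on a log axis) over the 39165 compared probes (y axis, number of probes), with a red line for each of the 14 heat shock probes; line heights are set only to keep the names apart. Hspa1a lies at 2.8 in the far right tail, Hspb1 at 1.1, and Bag3 and the brighter Hspe1 probes at 0.14 to 0.15.

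The question of the study design is whether islets of the 2 genotypes differ. No heat shock probe passed limma's adjusted p of 0.05 over 39165 compared probes, of which 43 (0.11%) did. At an unadjusted p under 0.05 there was 1 heat shock probe, of Hspe1, lower in β-CB1R-/- islets, as were 1.92% of all compared probes (3.59% in either direction). The methods' t-test, on the same values, had 3 heat shock probes under 0.05, as had 3.61% of all compared probes, and 0 after Benjamini-Hochberg adjustment. The estimates were lower in β-CB1R-/- islets for 13 of 14 probes (52.3% of all compared probes), with a median of -0.335 over the 14 probes and of -0.0167 over all. Probes of 1 gene are not independent. By the brightest probe of each gene, 8 of 9 were lower with a median of -0.284, against 55.7% lower and a median of -0.0394 over all genes. The groups did not overlap for 2 probes, both of Hspe1 and both lower (1.96% of all compared probes were lower without overlap), and overlapped for 12. Cell type markers also differed in sign by list: 4 of 4 alpha cell markers (median -0.67, 2 at an unadjusted p under 0.05) and 7 of 8 beta cell markers (median -0.17) were lower in β-CB1R-/- islets. Higher were 9 of 10 acinar markers (median 0.17), 5 of 5 macrophage markers (median 0.38) and 4 of 4 stellate cell or fibroblast markers (median 0.73). None passed the adjusted threshold in limma, and their part in the chaperone differences was not tested.

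For Hspe1 the difference of β-CB1R-/- from β-CB1R+/+ islets on the log2 scale was -0.52 ± 0.19 (SE) with A_55_P2089358 (limma p = 0.0227, adjusted p = 0.999, 4 against 3 mice, exact permutation p = 0.0286). With A_66_P124952 it was -0.41 ± 0.18 (limma p = 0.0569, adjusted p = 0.999, exact permutation p = 0.0286). With the dimmer A_55_P1953063 it was -0.12 ± 0.20 (limma p = 0.568, adjusted p = 0.999, exact permutation p = 0.486). The unadjusted call of A_55_P2089358 was lost when any 1 of 4 mice was left out, with limma p-values of 0.055 and 0.0579 without β-CB1R+/+ mice 2 and 3 and of 0.0607 and 0.068 without β-CB1R-/- mice 1 and 2. The permutation test of 4 against 3 mice cannot give a smaller exact p than 0.0286. Its partner Hspd1 had a difference of -0.28 ± 0.19, with a 95% confidence interval of -0.73 to 0.16 (exact permutation p = 0.0857). Hspa8 differed by -0.39 ± 0.20 with its brightest probe (-0.85 to 0.07), by -0.45 ± 0.23 with A_55_P2069721 and by -0.068 ± 0.23 with A_52_P12877.

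For the genes that spread widely between mice, the interval was wide. Hspa1a differed by -1.05 ± 1.72, with an interval of -5.03 to 2.92 (exact permutation p = 0.686), so that neither a large rise nor a large fall could be told from no change. Without β-CB1R+/+ mouse 3 the value was 0.045. Hspb1 differed by -0.19 ± 0.69 (-1.78 to 1.41) and turned to 0.13, 0.14 and 0.30 without β-CB1R+/+ mouse 3, β-CB1R+/+ mouse 4 and β-CB1R-/- mouse 3. Dnajb1 differed by -0.78 ± 0.50 (-1.93 to 0.37), and by -0.42 without β-CB1R+/+ mouse 3, -0.46 without β-CB1R-/- mouse 1 and -1.19 without β-CB1R-/- mouse 2. Hsph1 differed by -0.21 ± 0.35 with its brighter probe and by -0.74 ± 0.44 with A_55_P2003513, which gave -0.44, -0.38 and -1.13 without the same 3 mice in turn. Bag3 differed by -0.17 ± 0.18 (-0.60 to 0.25). Hsp90aa1, the only one higher, differed by 0.17 ± 0.54 and by -0.36 without β-CB1R+/+ mouse 1. With all mice and no covariate, all of these had an adjusted p of 0.999 in limma.

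**Figure D3:**
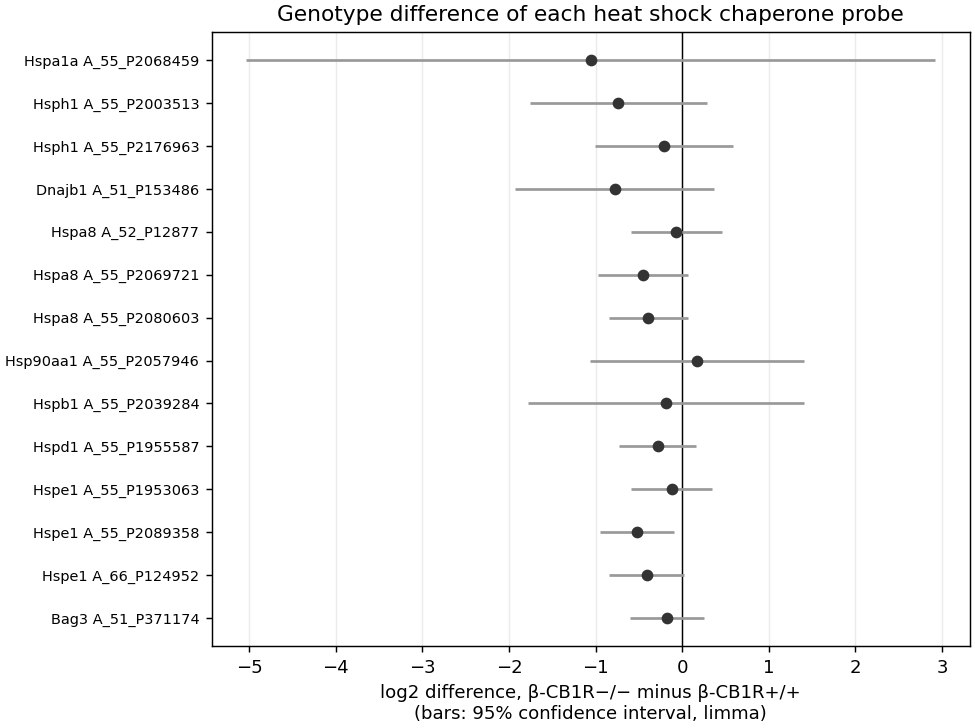
Difference between genotypes of each of the 14 heat shock probes on the log2 scale, β-CB1R-/- minus β-CB1R+/+ (x axis), with one line per gene and probe (y axis). Points are limma estimates from 4 against 3 mice and bars are 95% confidence intervals; 13 points lie left of 0, the bar of Hspa1a spans -5.03 to 2.92, and the bar of 1 Hspe1 probe, -0.95 to -0.09, does not reach 0.

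Hsf1, the factor that switches on the heat shock genes, stood at 1.97, 2.15, 2.06 and 1.83 in the β-CB1R+/+ mice and at 1.33, 1.59 and 1.95 in the β-CB1R-/- mice. Its difference was -0.38 ± 0.21 (exact permutation p = 0.0857, adjusted p = 0.999 in limma) and -0.23 without β-CB1R-/- mouse 1, and its order over the mice was not that of Hspa1a or Fos. Of 5 measured genes on the list of heat shock factors and their regulators, 3 were lower and 2 higher in β-CB1R-/- islets, with none past the adjusted threshold in limma. At an unadjusted p under 0.05 there were 2, Hsbp1 and Hsf4, both higher, against 3.9% of all genes in either direction. The largest difference was that of Hsbp1, which binds the HSF1 trimer, at 1.06 ± 0.21: 3.23, 3.00, 3.05 and 3.16 in the β-CB1R+/+ mice against 3.82, 4.42 and 4.27 in the β-CB1R-/- mice. Its groups did not overlap (exact permutation p = 0.0286), and its adjusted p in limma was 0.379. The lowest was that of Hsf2, another heat shock factor, at -0.44 ± 0.29.

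Around the 10 genes, 138 others were listed as chaperones, co-chaperones or heat-inducible genes, of which 132 had a compared probe. In β-CB1R-/- islets 78 were lower and 54 higher, with a median of -0.087, none past the adjusted threshold in limma and 4 at an unadjusted p under 0.05, a share no larger than the 3.9% of all genes. Of the other HSP70 and HSP110 proteins 8 of 9 were lower (median -0.18), from Hspa4l at -0.63 ± 0.26 to Hspa2 at 0.04 ± 0.26. Of the other J proteins 19 of 30 were lower (median -0.13), from Dnajc27 at -0.82 to Dnajc5, a J protein of secretory vesicles, at 0.66. HSP90 and its co-chaperones were lower in 13 of 18 (median -0.21), from Stip1, which links HSP70 to HSP90, at -0.44 ± 0.23 to Fkbp5 at 0.30. Fkbp5 stood at 3.92 in β-CB1R-/- mouse 2 and at 2.30 to 2.88 in all other mice. Of BAG proteins and other HSP70 regulators 5 of 10 were lower (median -0.0011), from Bag2 at -0.30 to Hspbap1 at 0.38. Chaperones of the endoplasmic reticulum were lower in 11 of 12 (median -0.19), from Pdia3, a disulphide isomerase, at -0.48 to Calr at 0.10. None of these genes passed the adjusted threshold.

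Mitochondrial chaperones and proteases other than Hspd1 and Hspe1 were higher in 10 of 13 (median 0.15), from Dnaja3 at -0.14 to Dnajc19, a part of the import motor, at 0.45. Dnajc19 stood at 1.53 in β-CB1R+/+ mouse 1 and at 2.69 to 3.12 in all other mice. The CCT chaperonin and prefoldin were lower in 8 of 14 (median -0.031), from Cct6a at -0.35 to Cct4 at 0.28. Small heat shock proteins other than Hspb1 were lower in 5 of 7 (median -0.14), from Hspb11 at -0.20 to Cryab at 0.20 ± 0.61. Genes of other kinds that heat induces were higher in 11 of 15 (median 0.17), with the largest difference in Sqstm1, an autophagy receptor, at 1.31 ± 0.69. Housekeeping genes, as a background list, were lower in 10 of 14 (median -0.13), from Tubb5 at -0.66 to Eef1a1 at 0.24.

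The 3 mice highest in Fos were also the 3 highest in most of the immediate-early genes and in few of the chaperones, though not always in the same order. Of 18 immediate-early genes other than Fos that were well above background on all 8 arrays, 15 had their 3 highest values in the same 3 mice, among them Fosb, Jun, Junb, Egr1, Ier2, Nr4a1, Dusp1 and Arc. Of the 132 chaperone and heat-inducible genes around the 10, dim ones included, 3 did, Hspb2 and Atf3 among them, as held for 1.33% of all genes. Hspb2 and Atf3 were each well above background on 7 of the 8 arrays. Hspb2 was dim, at -3.04 to -1.54. Its 3 highest mice lay 0.11 above the next, and the repeat arrays of β-CB1R-/- mouse 2 gave -2.62 and -1.62. Atf3, a stress-induced transcription factor, stood at -2.04, -5.41, 3.01 and 1.84 in the β-CB1R+/+ mice and at -2.61, 4.15 and -3.06 in the β-CB1R-/- mice. None of the 14 housekeeping genes had its 3 highest values in those mice. By genotype 15 of the 21 immediate-early genes were lower and 6 higher in β-CB1R-/- islets (median -0.19), from Fosb at -0.88 to Egr2 at 1.35, with none past the adjusted threshold and 0 at an unadjusted p under 0.05 in limma.

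The mean of the immediate-early list, each gene taken relative to its mean over the 7 mice, stood at -1.25, -1.28, 1.75 and 1.02 in the β-CB1R+/+ mice and at -0.79, 1.71 and -1.15 in the β-CB1R-/- mice. That of the 9 heat shock genes stood at -0.44, -0.26, 0.93 and 0.40, then -0.48, 0.31 and -0.47, a narrower range with the same 3 mice above 0. Without Hspa1a and Hspb1, the mean of the other 7 genes stood at -0.23, 0.20, 0.51 and 0.02, then -0.41, -0.01 and -0.09, so that β-CB1R+/+ mouse 4 and β-CB1R-/- mouse 2 lay near 0 and β-CB1R+/+ mouse 2, lowest in Fos, above them. The 132 others together stayed between -0.07 and 0.08, but the 15 other heat-inducible genes among them stood at -0.30, -0.70, 0.42 and 0.12, then -0.20, 0.79 and -0.13, with the same 3 mice highest. The place of β-CB1R+/+ mouse 4 among these 3 rested on Atf3, which relative to its mean stood at 2.43 there and at -2.47 in β-CB1R-/- mouse 3. Of the 15 genes, 2 had their own 3 highest values in these mice, Atf3 among them. Of the markers of other cells, 0 of 10 acinar, 5 macrophage, 3 endothelial and 4 stellate cell or fibroblast markers had their 3 highest values in those mice, a count that cannot be told from the 1.33% of all genes. The acinar mean stood at 0.32, -0.73, 0.10 and 0.05, then 0.43, 0.39 and -0.57. The stellate cell or fibroblast mean was at 1.79 in β-CB1R+/+ mouse 4 and between -1.34 and 0.65 in the other mice. As in any bulk RNA, fewer cells of a type and less RNA per cell cannot be told apart.

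**Figure D4:**
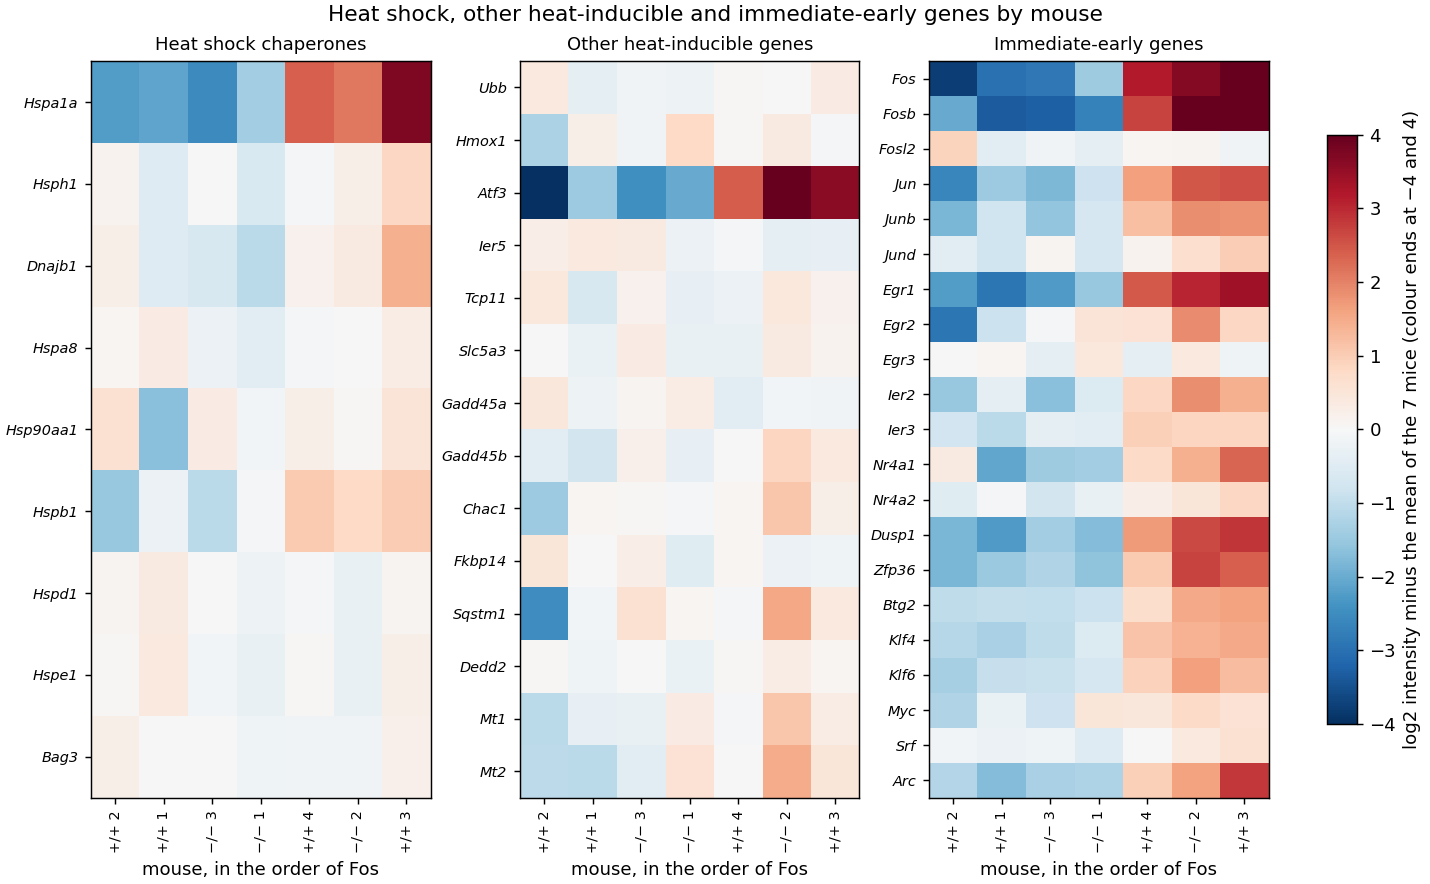
Log2 intensity of each gene minus its mean over the 7 mice (colour, from -4 in blue to 4 in red) for the 9 heat shock genes, 14 of the 15 other heat-inducible genes and 21 immediate-early genes (rows, brightest probe of each gene), with the mice in the order of Fos (columns). The 3 columns at the right, β-CB1R+/+ mouse 4, β-CB1R-/- mouse 2 and β-CB1R+/+ mouse 3, are red in Hspa1a, Atf3 and most immediate-early genes and near white in Hspa8, Hspd1, Hspe1 and Bag3.

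Apart from the 10 genes, those most like Hspa1a over the 7 mice, by the root mean square difference of log2 values each centred on its mean, were Egr1 (0.491), Malat1 (0.547), Dusp1 (0.679), Jun (0.702) and Fam71a (0.911), out of 16950 genes with a median of 2.5. Fos came eighth (0.956). On 4 of the 8 arrays alone did Fam71a exceed background clearly, so that it could pass the filter on dim probes through its high mice alone. The measure compares unscaled values, so that genes with a range far from that of Hspa1a cannot lie close to it whatever their order over the mice, and the other heat shock genes were not ranked. Egr1, a zinc finger transcription factor, stood at 0.09, 0.75, 6.39 and 5.44 in the β-CB1R+/+ mice and at 1.47, 6.02 and 0.73 in the β-CB1R-/- mice. Malat1, a long noncoding RNA held in the nucleus, stood at 1.35, 1.23, 5.73 and 5.44, then 1.52, 5.36 and 1.31. Both were high in the 3 mice that were high in Hspa1a and low in the other 4.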

How the data were processed

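The authors deposited, per array, the intensity of each spot from Feature Extraction 11.5.1.1, background-subtracted and not scaled between arrays, and a Z score, which matched the standardised log10 intensity to within 0.00503. The paper's text refers elsewhere for its array methods and names Student's t-test or ANOVA as its general statistics; for 2 groups the former was run as an alternative. Here the intensity was taken as log2 minus each array's 75th percentile over 59305 non-control spots, flagged spots were left out (no spot was saturated), and spots of a probe and repeat arrays were averaged. Probes well above background in 3 or more of the 7 mice were compared (39165 of 55681). Genotypes were compared with limma 3.58.1 (R 4.3.3; lmFit, eBayes; two-sided tests), and p-values were adjusted by Benjamini-Hochberg over all compared probes, with a threshold of 0.05. For single genes the mean difference was also put to an exact permutation test, two-sided, with 35 ways to assign the mice. The limma step was tested on simulated data.

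Accessions were matched to RefSeq transcripts, and 28026 probes matched 1 symbol. Where lists are counted, each gene is represented by its brightest probe. The genes, the lists and the naming rule (all probes of the 10 genes, Fos, Hsf1, the extremes of each list, the 5 genes most like Hspa1a and 4 level checks) were chosen with earlier results of these data known. Atf3, Hspb2, Hsf4 and the immediate-early genes listed for their highest mice were named after their values were seen. A gene of the lists is not reported by name here. Replicates are separate mice per the labels, and their number limits precision. The alternatives are listed in the closing section.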

Additional observations from a re-analysis of the deposited data

Results flagged for a closer look

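Hsp90aa1 in β-CB1R+/+ mouse 1 stood at 2.67, far below the other 3 β-CB1R+/+ mice at 4.59 to 4.94. The gap to the nearest of them was 0.843 of the whole range, above Dixon's critical value for 4 samples. Among 16 probes examined in this way, 1 stood apart and chance gives about 0.8.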

How the results depend on the processing

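Alternatives for the scale were quantile normalisation, normexp, and Z scores, own or deposited. Dim probes were kept, or had to be well above background on all 8 arrays, and 1 repeat array was used alone. Alternatives for the model were an intensity trend, the replicate block, Fos as a covariate and the methods' t-test, and each of the 7 mice was dropped. No heat shock probe passed the adjusted threshold under any of them, and between 0 (with the replicate block, for one) and 4 (with normexp) had an unadjusted p under 0.05. The number of probes past the threshold over the whole array, 43, was 23 with no filter on dim probes, 24 with the filter on all arrays, 17 with Fos as a covariate and 0 with the methods' t-test after adjustment (1412 at an unadjusted p under 0.05). Leaving out 1 mouse gave 0 to 42: 22, 15, 5 and 19 without β-CB1R+/+ mice 1 to 4, 42 without β-CB1R-/- mouse 1, 0 without mouse 2 (785 unadjusted) and 5 without mouse 3. Between mice that share a replicate number, 1 to 3, the correlations of deviations were 0.422, -0.273 and -0.062. So few mice cannot show whether these numbers pair them. The replicate block, over replicates 1 to 3, gave 0 probes (1714 unadjusted) and turned Hspb1 to 0.14. The number of heat shock probes among the 10% with the largest SD went from 3 to 6 with normexp and to 5 with the filter on all arrays (3 to 4 with 1 mouse left out). The number highest in the mouse with the most Fos, 5, ranged from 4 to 8 with 1 mouse left out, and was 8 without β-CB1R+/+ mouse 1. On the Z scales the range of Hspa1a was 2.05 (own) and 2.07 (deposited) Z units, that of Hspb1 0.84 on both. With 1 mouse left out the median difference of the heat shock genes ran from -0.42 to -0.14, the number of probes lower from 10 to 14, that of the 132 other genes lower from 76 to 83 with their median from -0.14 to -0.041, and Hspa1a from -2.41 to 0.045. The same range was -0.54 to -0.23 for Hsf1, -1.19 to -0.42 for Dnajb1, -1.13 to -0.38 for Hsph1 A_55_P2003513, -0.41 to 0.032 for Hsph1 A_55_P2176963, -0.26 to 0.11 for Hspa8 A_52_P12877, -0.36 to 0.4 for Hsp90aa1 and -0.71 to 0.3 for Hspb1. Values that changed sign were Hspa1a (0.045), Hspb1 (0.13) and Hsph1 A_55_P2176963 (0.032) without β-CB1R+/+ mouse 3, Hspb1 (0.14) without β-CB1R+/+ mouse 4, Hsp90aa1 (-0.36) without β-CB1R+/+ mouse 1, Hsph1 A_55_P2176963 (0.028) and Hspa8 A_52_P12877 (0.11) without β-CB1R-/- mouse 1, and Hspb1 (0.30) without β-CB1R-/- mouse 3. The causes were not tested. The 7 mice on 1 slide limit what could be seen.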
